A study of Mus musculus with 8 samples.

Results

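Non-cycling CD8 effector T cells were studied in 8 single-cell libraries of mouse heart, liver and kidney allografts and of recipient blood. A cell was taken as a member when it held at least 500 UMIs (unique molecular identifiers, the tags that count captured mRNA molecules), with at most 10% of them from mitochondrial genes. It also had to hold at least 2 UMIs over Cd3d, Cd3e, Cd3g and Trac and at least 2 over Cd8a and Cd8b1, and none of Cd4, Csf1r or Cd79a. Cells with 3 or more UMIs over the cycle genes Mki67, Top2a, Ube2c, Birc5, Cdk1 and Ccna2, or over the activation genes Xcl1, Crtam and Tnfrsf9, were left out. This gave 5099 members among 47541 cells that passed the UMI and mitochondrial limits, 10.7% of them (exact binomial 95% interval 10.4 to 11.01). The members were chosen by their measured UMIs of these genes, so the levels of the genes in the rule are a description of the choice and not a finding. Near the limits, 949 members held exactly 2 T cell receptor UMIs while 814 cells that met every other condition held 1, and 2150 members held exactly 2 CD8 UMIs while 3617 otherwise fitting cells held 1. At the upper limits, 946 members held 2 cycle UMIs against 511 cells just outside with 3, and 228 members held 2 activation UMIs against 91 just outside with 3.

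Each of the 8 libraries was the only one of its condition. The labels give every sample as BALB/c, male and 8 weeks old, which is the strain and age of the organ donors, and by the study's methods the organs were grafted into C57BL/6 recipients that received no immunosuppression. All samples were collected 7 days after grafting, so no library of ungrafted or syngeneic tissue stands beside them here. The conditions were blood mononuclear cells (PBMC) of recipients of a heart, a liver or a kidney, lymphocytes separated from each of these grafts (TIL), and dissociated solid tissue, or parenchymal cells (PC), of the liver and kidney grafts. PC of heart were not analysed here. By the methods, tissue came from more than 1 recipient an organ, and whether a library pools animals is not stated. With a single library a condition there was no test between conditions. Intervals in parentheses are exact 95% Poisson intervals for levels and folds and exact binomial intervals for shares. They take in counting error alone, since the spread between animals was not measured. Levels and folds come from UMIs summed over members, so their intervals leave out the spread between cells too.

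CD8 T cells recognise peptides held by MHC class I molecules on other cells. Once differentiated into effectors they store granzymes and perforin in granules, which they release onto target cells, and they secrete the chemokines Ccl3, Ccl4 and Ccl5, which draw in further leukocytes. In a rejecting graft, recipient CD8 T cells that enter the tissue are known as killers of donor cells, whereas naive CD8 T cells circulate through lymph nodes with the help of the homing receptor Ccr7.

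Total depth lay between 3418722 and 19171264 UMIs a library, and the summed UMIs of members lay between 60208 in kidney PC and 3163752 in liver PC. The median member held between 604 UMIs in kidney PC and 1374 in liver PC. The libraries labelled heart TIL and liver TIL carried markers of each other's organ. Members of the library labelled heart TIL held 108 CPM (counts scaled to 1000000 UMIs of the members) of the hepatocyte gene Alb, against 75.5 CPM in liver PC and 0 in the library labelled liver TIL. The cardiac genes Tnnt2 and Acta1 stood at 49.7 and 31.0 CPM in the library labelled liver TIL and at 0 in the library labelled heart TIL. These 2 libraries are therefore named by their labels throughout. Barcodes recurred between libraries. In all, 24 member barcodes were shared over 8 of 28 pairs of libraries, 12 of them between the libraries labelled heart TIL and liver TIL, and 584 members (11.5%) had a barcode that was also a passing cell of another library. Without those 584 members, each count of genes past 2-fold stayed within 1.5 times its value and each median of effector UMIs given below moved by at most 1 UMI.

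The effector label was checked against Gzmb, which the rule did not use, in each library but kidney PBMC. In the kidney grafts Gzma and Ccl5, and in kidney TIL also Klrd1, were added, which the rule did not use either. Their shares in the other libraries were not part of this check. The reference was the cells of the same library with no UMI of Cd3d, Cd3e, Cd3g, Trac, Cd8a or Cd8b1, a mixed population that can itself hold some T and NK cells. After every cell was thinned to 500 UMIs, Gzmb was found in 75.6% of members and 10.8% of the reference cells of heart PBMC, in 43.2% and 5.98% of those of liver PBMC, in 80.6% and 33.2% in the library labelled heart TIL, in 62.4% and 23.5% in the library labelled liver TIL, and in 78.2% and 21.0% in liver PC. Before thinning, the median depths of members and reference cells were 1098.5 and 729 UMIs in heart PBMC and 1012 and 666 in liver PBMC. The same depths were 1374 and 1349 for liver PC against 694 and 615 for kidney TIL. In kidney grafts the 4 markers were split. Gzmb was found in 18.4% (14.6 to 22.8) of members and 10.8% (6.55 to 16.6) of reference cells of kidney TIL, and in 16.1% (9.32 to 25.2) and 8.99% (3.96 to 16.9) of those of kidney PC. Gzma, at 13.6% of members and 7.23% of reference cells of kidney TIL and 13.98% and 10.1% in kidney PC, also stood higher in members, with overlapping intervals in both libraries. Ccl5, in contrast, was found in 31.7% of members and 45.8% of reference cells of kidney TIL and in 55.9% and 66.3% in kidney PC, so it did not set these members apart from the reference. Klrd1, at 4.07% of members and 6.63% of reference cells in kidney TIL, did not do so either. The granule gene Nkg7 was found in 75.3% of members and 44.6% of reference cells of kidney TIL. Members thus stood above the mixed reference in Gzmb in PBMC of heart and liver, both TIL libraries labelled heart and liver, and liver PC. The effector label of these libraries rests on Gzmb alone. In the library labelled liver TIL, members were not 2-fold over the reference in CPM of Ccl5. In kidney TIL and kidney PC Gzmb and Gzma were higher in members with overlapping intervals and Ccl5 was not, so the members there are called CD8 T cells by the rule. In kidney PBMC, a library of 1143 passing cells, 75 of the 380 reference cells were NK cells (gated on their receptors). Gzma stood at 9194 CPM in the reference against 3283 in members. The 7 marker genes of CD8 effector T cells, some of them in the rule, summed to 16364 CPM in members and 21354 in the reference. The effector label could not be checked against that reference, so members of kidney PBMC are also called CD8 T cells by the rule.

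Members were a smaller share of the blood of heart and liver recipients than of any graft, while kidney PBMC lay within the range of the grafts. In the blood of heart recipients they made up 2.06% (1.75 to 2.40) of passing cells, against 1.19% (0.944 to 1.47) for liver and 9.54% (7.90 to 11.4) for kidney recipients, which is 160, 81 and 109 cells. Kidney PBMC stood above both others with no overlap of counting intervals, and it had only 1143 passing cells. In TIL the shares were 14.9% (14.2 to 15.6) in the library labelled heart, 8.98% (8.403 to 9.57) in the library labelled liver and 18.4% (16.7 to 20.2) in kidney. With the 2 labels exchanged, the first of these values would be that of liver and the second that of heart. In PC they were 20.1% (19.3 to 20.9) of liver and 11.7% (9.55 to 14.1) of kidney cells, from 2010 and 93 members. The rule finds more members in deeper cells, and on cells thinned to 500 UMIs the shares were 0.579%, 0.352% and 4.90% for the blood of heart, liver and kidney recipients. The thinned shares were 7.05% and 4.61% in the libraries labelled heart TIL and liver TIL, 11.1% in kidney TIL, 8.63% in liver PC and 7.04% in kidney PC. At equal depth kidney TIL had the highest share of the 8, and liver PC no longer did.

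Non-cycling members can also be counted as a share of all CD8 T cells, which adds back the cycling and activated cells that the rule removed. Of 7471 CD8 T cells over all libraries, 2106 were left out for cycle genes and 266 for activation genes alone. In blood, members were 87.0% (81.2 to 91.5) of CD8 T cells for heart, 81.0% (71.9 to 88.2) for liver and 55.1% (47.8 to 62.1) for kidney recipients, so cycling CD8 T cells were most frequent in the blood of kidney recipients among the 3 blood libraries. The shares in TIL were close together at 76.3% (74.3 to 78.2) in the library labelled heart, 74.0% (71.3 to 76.5) in the library labelled liver and 73.9% (69.9 to 77.7) in kidney. They were 59.6% (58.0 to 61.3) in liver PC, where 1249 cells were cycling, and 92.1% (85.0 to 96.5) in kidney PC, where 6 were. The chance of finding 3 cycle UMIs also moves with depth, and cycling cells had a median of 2324 UMIs in liver PC. The part of depth in these shares was not tested.

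**Figure D1:**
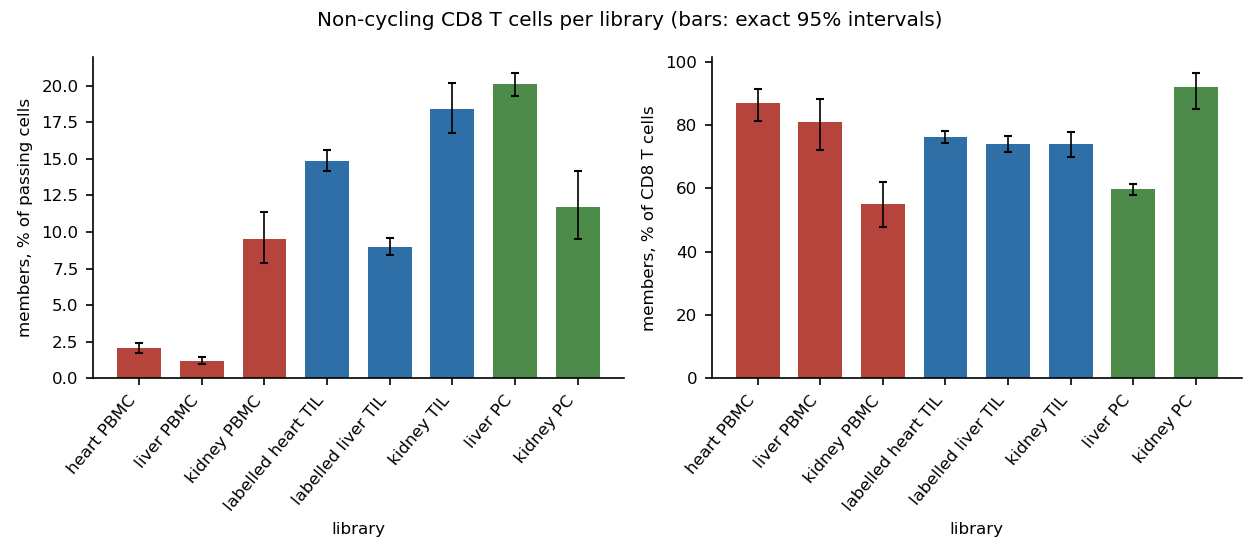
Members of each of the 8 libraries as a percentage of passing cells (left) and of CD8 T cells (right), coloured by compartment, with exact binomial 95% intervals as error bars. Blood libraries of heart and liver recipients sit at 2.06% and 1.19%, kidney PBMC at 9.54%, and the graft libraries between 8.98% and 20.1%.

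Granzymes are the proteases of the killing granule, and Gzmb, whose product activates caspases in the target cell, was lowest in the 2 kidney graft libraries. Among the blood libraries Gzmb stood at 4153 CPM (3872 to 4450.0) for heart, 2071 (1787 to 2387) for liver and 1651 (1422 to 1906) for kidney recipients. The TIL values were 5448 (5328 to 5571) under the heart label, 3561 (3432 to 3694) under the liver label and 565 (481 to 659.7) for kidney, and the PC values were 5865 (5781 to 5950.2) in liver and 432 (282 to 633) in kidney. The intervals of the 2 kidney graft libraries did not overlap with those of the other 6. Reference cells with no T cell UMI held 275 CPM in kidney TIL and 241 in kidney PC, and 921 in the library labelled heart TIL. Liver PBMC was 2.01-fold (1.71 to 2.36) below heart PBMC, an interval that spans 2-fold. Liver PC was 13.6-fold (9.27 to 20.8) above kidney PC.

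Gzma, a granzyme of a different cleavage specificity, differed more than Gzmb did between the TIL libraries labelled heart and liver. Under the heart label TIL members held 4342 CPM (4235 to 4452) and under the liver label 1256 (1180.0 to 1336), a difference of 3.46-fold (3.23 to 3.698), while Gzmb differed between them by 1.53-fold (1.47 to 1.60). In kidney TIL it was 404 (333 to 485). Across PBMC, the levels of Gzma were 3942 (3668 to 4232) in heart, 2671 (2347 to 3027) in liver and 3283 (2957 to 3636) in kidney, so none of the 3 pairs reached 2-fold. The PC of liver were at 3611 (3545 to 3677) and those of kidney at 448 (296 to 652), 8.05-fold (5.53 to 12.2) apart. Gzmk, the granzyme of less differentiated effector and memory cells, was at 273 (204 to 357) and 229 (142 to 349.9) in the blood of heart and liver recipients but at 71.0 (30.7 to 139.9) in that of kidney recipients.

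Ccl5, a chemokine that effector and memory CD8 T cells keep ready as stored mRNA, was at 16593 CPM (16025 to 17175) in the blood of heart recipients, against 9254 (8642 to 9898) for liver and 7517 (7019 to 8040.3) for kidney recipients. The grafts spanned a wider range, with 12569.8 (12386 to 12756) under the heart label of TIL, 5145 (4989.8 to 5304) under the liver label, 1053 (938 to 1179.5) in kidney TIL, 11719.9 (11601 to 11839.9) in liver PC and 1943 (1607 to 2329) in kidney PC. Kidney TIL lay 11.9-fold (10.6 to 13.4) below the library labelled heart TIL, and its members held less Ccl5 than its reference cells, at 1578 CPM. Klrd1, the CD94 chain of NK receptors that killer T cells also carry, was at 494 CPM (458 to 532) and 555 (505 to 609) in the libraries labelled heart TIL and liver TIL and at 116 (79.8 to 163) in kidney TIL. Nkg7, which takes part in granule release, behaved otherwise. Its levels were 4004 (3901 to 4109.7), 2414 (2308 to 2524) and 2988 (2791 to 3196) in the libraries labelled heart TIL and liver TIL and in kidney TIL, and liver PC and kidney PC differed by 0.995-fold (0.864 to 1.15). Nkg7 was past 2-fold in none of the 7 comparisons.

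**Figure D2:**
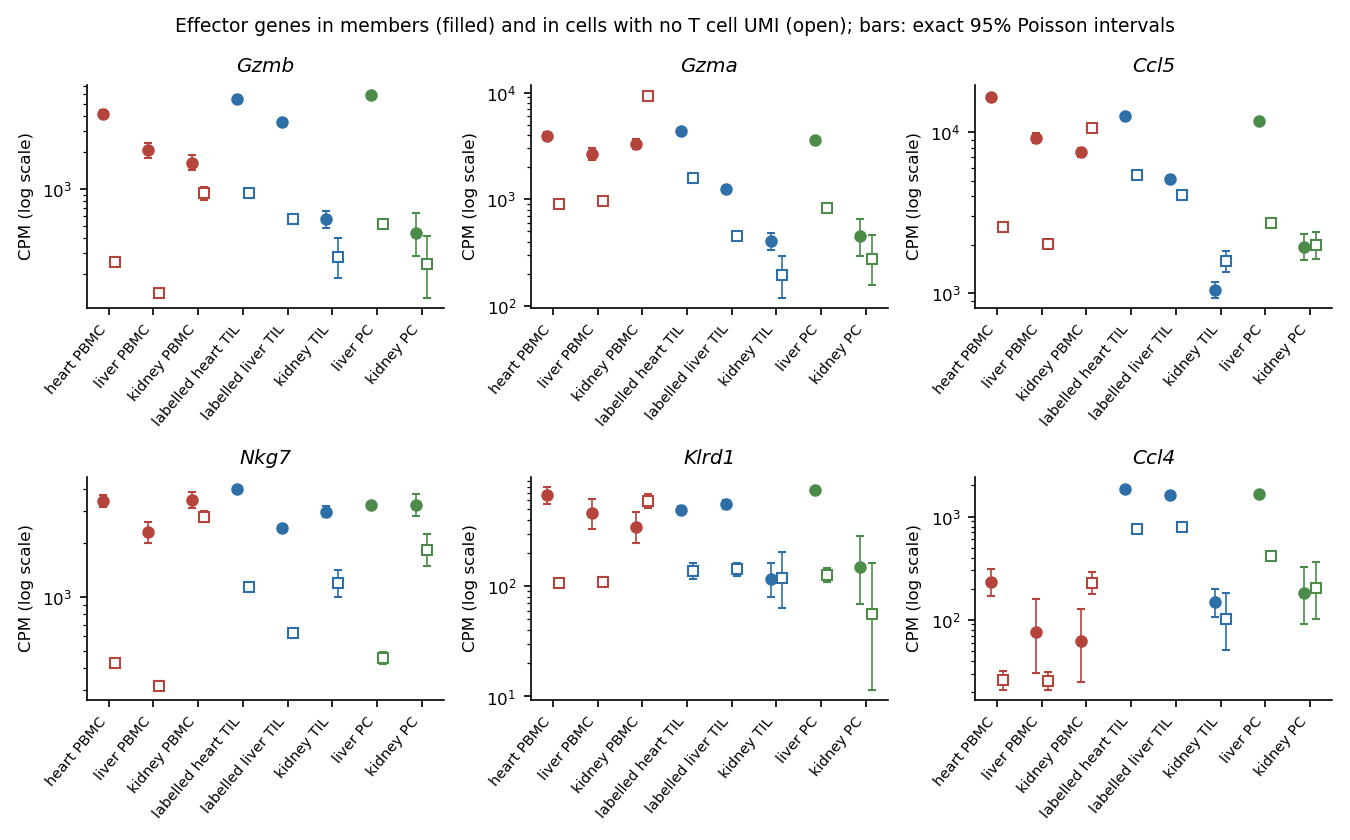
Levels of 6 effector genes in CPM on a log axis in each of the 8 libraries, for members (filled points, exact Poisson 95% intervals) and for cells of the same library with no T cell UMI (open points). Gzmb, Gzma, Ccl5 and Klrd1 are lowest in kidney TIL and kidney PC, whereas Nkg7 is between 2289 and 4004 CPM in the members of all 8 libraries.

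The genes of this pathway lie on several chromosomes. In GRCm38 with GENCODE vM21, Gzmb (ENSMUSG00000015437, chromosome 14, 56258838 to 56262260) and Gzma (ENSMUSG00000023132, chromosome 13, 113093825 to 113100981) are both protein-coding, as are the neighbouring chemokine genes Ccl3 (ENSMUSG00000000982, chromosome 11, 83647844 to 83649355), Ccl4 (ENSMUSG00000018930, chromosome 11, 83662584 to 83664683) and Ccl5 (ENSMUSG00000035042, chromosome 11, 83525778 to 83530518). Klrd1 (ENSMUSG00000030165, chromosome 6, 129591782 to 129598775) and Nkg7 (ENSMUSG00000004612, chromosome 7, 43437073 to 43438249) are the other 2 effector genes of the per-cell sums that follow.

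Within a library members differed widely. The UMIs of Gzma, Gzmb, Ccl5, Nkg7 and Klrd1 were summed in each member after thinning to 500 UMIs. The blood medians were 14 for heart, 8 for liver and 6 for kidney recipients, and the 10th to 90th percentiles ran from 3 to 26, 1 to 18 and 1 to 19.2. In TIL the median was 12 in the library labelled heart, 5 in the library labelled liver and 2 in kidney, with ranges of 5 to 25, 2 to 13 and 0 to 5, and in PC it was 11 in liver (4 to 26) and 3 in kidney (1 to 6). Cells with no T cell UMI had medians of 2, 1 and 5 in the blood libraries, 4, 2 and 1 in the 3 TIL libraries in the same order, and 1 and 2 in the PC libraries of the liver and kidney grafts. Members of kidney TIL and kidney PC therefore stood 1 UMI above the cells without T cell transcripts, whereas those of heart PBMC stood 12 above. Members of kidney PBMC also stood 1 UMI above, but 75 of the 380 reference cells there were NK cells, so that reference cannot place them. Other killer and T cells of the same libraries held as many of these UMIs or more in places. NK cells had medians of 14, 19.5 and 24 across blood of heart, liver and kidney recipients. Under the heart label of TIL, CD4 T cells had a median of 13 and cycling CD8 T cells one of 12, so the sum does not set members there apart from those cells. Under the liver label of TIL these medians were 3 and 6, and in liver PC they were 5 and 9. Activated CD8 T cells had medians of 8 and 6 under the heart and liver labels of TIL and 6 in liver PC. Members with none of these UMIs were 1.25% of heart PBMC, 9.88% of liver PBMC and 1.83% of kidney PBMC. They were 0.208% of the library labelled heart TIL, 13.3% of kidney TIL and 6.45% of kidney PC. Members with 10 or more were 66.2% and 19.9% in the libraries labelled heart TIL and liver TIL, 56.0% in liver PC, 1.63% in kidney TIL and 2.15% in kidney PC.

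**Figure D3:**
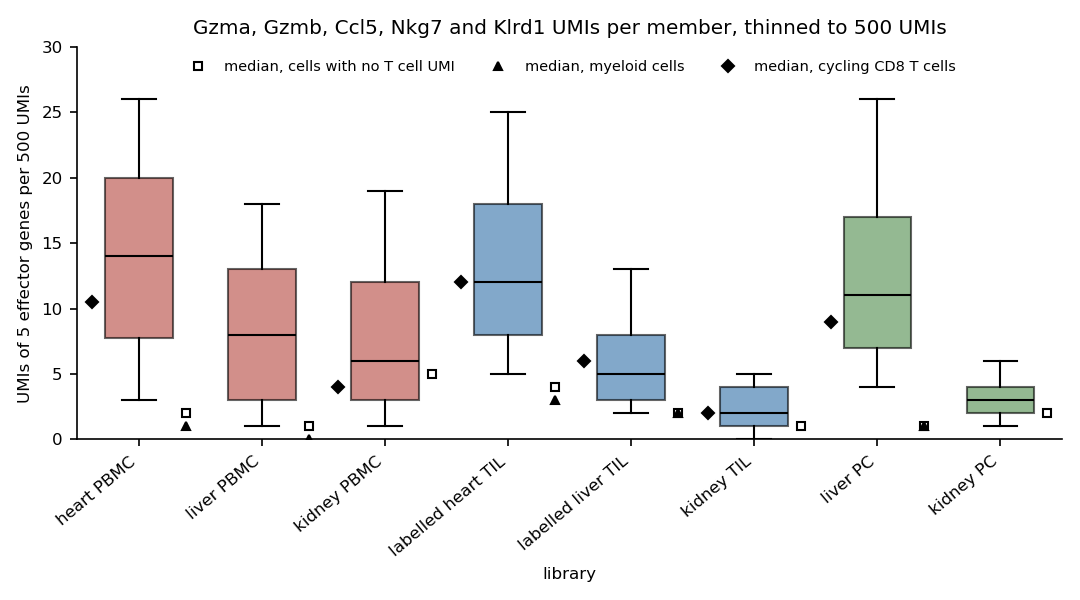
UMIs of Gzma, Gzmb, Ccl5, Nkg7 and Klrd1 per member after thinning to 500 UMIs (vertical axis) in each library. Boxes are quartiles with the median, whiskers reach the 10th and 90th percentiles, and the other marks are medians of reference cells. Medians run from 14 in heart PBMC to 2 in kidney TIL.

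The 2 main granzymes were found together in most members of 3 libraries. Both Gzma and Gzmb were detected in 54.4% of members of heart PBMC, 64.4% of the library labelled heart TIL and 54.7% of liver PC. In the library labelled liver TIL, 23.2% had both and 39.3% had Gzmb without Gzma, the highest share of that class among the 8 libraries. Kidney PBMC had the highest share with Gzma alone, 33.9%, against 10.6% in heart PBMC and 18.5% in liver PBMC. Neither granzyme was detected in 70.7% of members of kidney TIL and 73.1% of kidney PC, and in 38.3% of liver PBMC. In kidney PBMC Gzma was found in 56.0% of members and 71.3% of the cells with no T cell UMI. Of those 380 cells 75 were gated NK cells. The part of background Gzma in the classes of kidney PBMC members was not tested. Among cells with no T cell UMI in other libraries, Gzma was found in 29.9% of heart PBMC. It was found in 46.1% and 18.3% of those in the libraries labelled heart TIL and liver TIL, 7.23% in kidney TIL and 21.9% in liver PC. At 500 UMIs a cell, a missing UMI does not show that a cell lacks the gene.

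**Figure D4:**
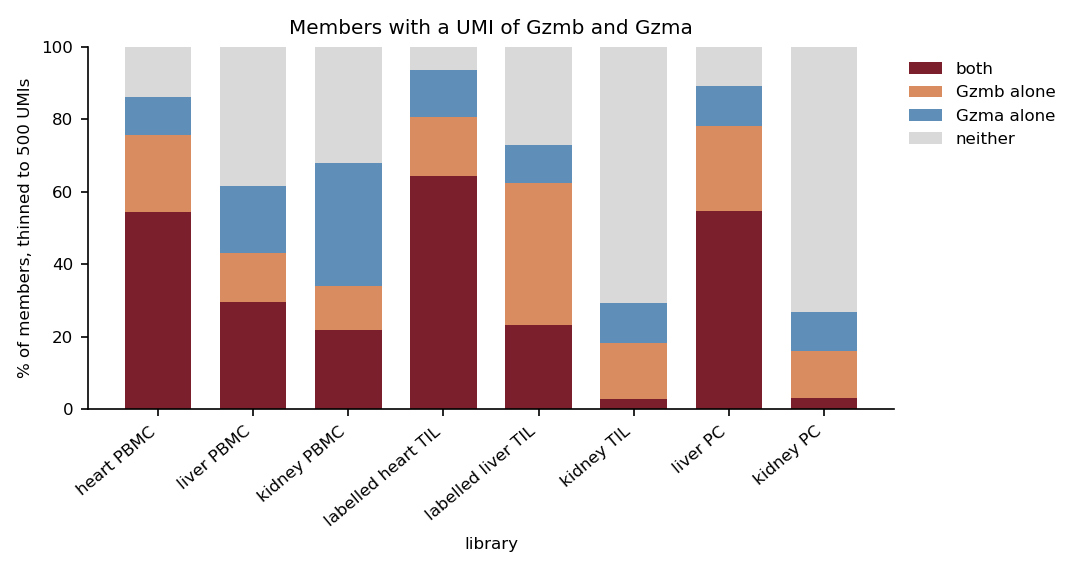
Percentage of members (vertical axis, stacked to the whole) with UMIs of both Gzma and Gzmb, of either alone or of neither, after thinning to 500 UMIs, in each of the 8 libraries. The class with neither takes 70.7% of kidney TIL and 73.1% of kidney PC members.

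The blood libraries were compared in pairs, which asks how members that circulate in recipients of different organs differed. The 3 pairs share their libraries and are not independent. A gene was compared where its mean level was worth at least 10 UMIs in the shallower sum, and it was called where the ratio, with 1 CPM added to both levels, was at least 2-fold. Members of liver PBMC and heart PBMC were the most alike of the 3 pairs by counts of calls, with 59 of 1338 genes higher in liver (4.41%) and 71 lower (5.31%). Of the cytotoxic granule list (18 genes in the files), 9 were compared, 0 were higher and 1, Gzmb, was lower, with a median log2 ratio of -0.53 against 0.00 over all genes compared. Among chemokines and cytokines, 4 were compared and 1 was lower. It was Ccl4, a chemokine of activated T cells and macrophages, at 232 CPM (169 to 309.9) in heart PBMC and 76.3 (30.7 to 157) in liver PBMC.

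Klrg1, an inhibitory receptor of terminally differentiated effectors, had the largest ratio over heart PBMC of the 8 higher genes that also stood 2-fold over both B cells and myeloid cells of liver PBMC. It was at 218 CPM (133 to 337) in liver PBMC, where 13 of 81 members held a UMI, 142 (81.2 to 231) in kidney PBMC and 15.4 (3.18 to 45.1) in heart PBMC. In the grafts it was between 12.6 and 32.3 CPM, so by point values both blood libraries of liver and kidney recipients stood above all other libraries. At this level the counting interval of kidney PC, the shallowest library, overlaps that of kidney PBMC. Beside the 4.41% higher and 5.31% lower of all genes, 7 of 19 NK receptor genes were compared between liver and heart PBMC, with Klrg1 higher and Klrc1, the NKG2A chain that pairs with Klrd1, lower at a log2 ratio of -1.05. Of naive and memory genes 6 were compared and 2 were higher in liver, Ccr7 at 283 CPM (185 to 415) against 66.9 (35.6 to 114) and the quiescence factor Klf2 at 294 CPM (194 to 428) against 77.2 (43.2 to 127). Neither was among the 8 higher genes that also stood 2-fold over both B cells and myeloid cells. After thinning, 9.88% of members of liver PBMC and 1.18% of its cells with no T cell UMI held Klrg1. The costimulatory receptor Cd28 was higher in liver at a log2 ratio of 1.39. Markers of other cells moved as well: summed over their lists, members of liver PBMC held 3477 CPM of B cell genes against 1534 in heart PBMC, and 42096 CPM of neutrophil genes against 80019. Among the marker lists erythroid genes had the largest median, with 5701 CPM in liver PBMC against 134, 3 and 5 of 9 at 0, and 4 of 4 compared higher at a median log2 ratio of 5.24. Of the 11 neutrophil genes Ltf alone was at 0 in liver PBMC, and of the 12 B cell genes Cd79a, which the rule bars, was the 1 at 0 in both libraries. Their part in the ratios was not tested. Of the 59 genes higher in liver PBMC 8, and of the 71 lower 12, also stood at least 2-fold over both B cells and myeloid cells of the higher library.

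Kidney PBMC stood further from heart PBMC, with 209 of 1641 genes higher in kidney (12.7%) and 205 lower (12.5%). Scaled without the marker genes of other cells 180 were higher and 249 lower, and centred on the median gene 186 and 223. Of the 205 lower, 23 also stood at least 2-fold over both B cells and myeloid cells of heart PBMC, and 35 over its cells with no T cell UMI. Of the 209 higher, 53 stood at least 2-fold over the cells of kidney PBMC with no T cell UMI. Of the cytotoxic granule list 9 genes were compared and 4 were lower in kidney, with a median log2 ratio of -0.88 against 0.07 over all genes. They were Gzmb at 2.52-fold (2.14 to 2.97), Gzmk at 3.84-fold (1.81 to 9.36), the pore-forming Prf1 at 2.80-fold (1.14 to 8.26), and Serpinb6b, an inhibitor of granule proteases. Ccl4 and Ccl5, 2 of 4 chemokine genes compared, were also lower, Ccl5 by 2.21-fold (2.05 to 2.38). So were Tbx21, the T-box factor of effector differentiation, at a log2 ratio of -1.42, and Cxcr6, a receptor that holds T cells in tissue, at 71.0 CPM (30.7 to 139.9) against 262 (195 to 345). In the other direction, Itgb1, the integrin chain for matrix adhesion, was at 275 CPM (187 to 390.5) against 41.2 (17.8 to 81.1), and Dapl1, a gene of less differentiated CD8 T cells, at 435 CPM (322 to 575) against 25.7 (8.36 to 60.1). Of 9 naive and memory genes compared, 4 were higher in kidney (Ccr7, Klf3, Dapl1 and Actn1) and 1, S1pr1, was lower. Transcripts of other cells moved with this pair. Members of kidney PBMC held 967 CPM of 13 macrophage and monocyte genes against 6166 in heart PBMC, with 4 and 2 of them at 0, and 20926 CPM of 11 neutrophil genes against 80019, with 2 and 0 at 0. NK cell genes summed to 1890 CPM against 4174, with 2 of 2 compared lower, and 3 of 5 NK receptor genes compared were lower and 0 higher. B cell genes summed to 568 CPM against 1534, with 3 of 4 lower, and plasma cell genes to 293 against 808, with 2 of 3 lower. The 9 erythroid genes summed to 2733 CPM in kidney PBMC against 134, with 4 and 5 at 0, and Hbb-bs, Hba-a1 and Hba-a2 were among the genes with the largest ratios in favour of kidney. Their part in the ratios was not tested.

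The inhibitory receptor Ctla4 was high in kidney PBMC, at 763 CPM (610.5 to 943) with UMIs in 43 of 109 members. Members of heart and liver PBMC held 149 (99.96 to 214) and 65.4 (24 to 142), and those of the grafts between 98.3 and 209.6 CPM, so kidney PBMC was above each of the other 7 libraries. Thinned to 500 UMIs, 22.9% (15.4 to 32.0) of its members had a Ctla4 UMI, against 3.95% (2.23 to 6.43) of its cells with no T cell UMI. Lag3, another inhibitory receptor, was lower in kidney PBMC than in heart PBMC, at 71.0 CPM (30.7 to 139.9) against 159.5 (108 to 226). Of the remaining inhibitory receptors 1 more was compared, and it was past 2-fold in neither direction.

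Cycle genes that the rule did not use differed between the same libraries. Of 24 compared, 16 were higher in kidney PBMC than in heart PBMC and 0 lower, with a median log2 ratio of 1.21, while 12.7% of all genes were higher and 12.5% lower. They included the tubulin regulator Stmn1 at 772 CPM (618 to 952) against 335 (258 to 426) and the PCNA partner Pclaf at 683 CPM (539 to 854) against 129 (83.3 to 189.9). Members of kidney PBMC with 1 or 2 UMIs of the 6 cycle genes in the rule were 44.0%, against 26.2% in heart PBMC, so cells below the limit of 3 were not alike in cycle transcripts. Among members with no UMI of those 6 genes, 196 of 798 genes compared were past 2-fold between kidney and heart PBMC, against 414 of 1641 in all members, and fewer cells entered these sums. The ratios of liver over kidney PBMC ran the other way, with 0 higher and 9 lower of 22, beside 8.5% and 6.89% of all genes.

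Against kidney PBMC, members of liver PBMC had 116 of 1365 genes higher (8.5%) and 94 lower (6.89%). Of the 116, 12 also stood at least 2-fold over both B cells and myeloid cells of liver PBMC, and 17 over its cells with no T cell UMI. Of the 94, 25 stood at least 2-fold over the cells of kidney PBMC with no T cell UMI. Of the cytotoxic granule list 9 were compared and 1 was higher in liver, Gzmk at 3.22-fold (1.37 to 8.42). Among homing receptor genes Cxcr6 was higher in liver, at 174 CPM (99.7 to 283) against 71.0 (30.7 to 139.9), and Itgb1 lower, at 76.3 CPM (30.7 to 157) against 275 (187 to 390.5). Of 18 interferon-stimulated genes 3 were higher in liver, Igtp, Rtp4 and Oasl2, and 0 lower, while kidney over heart PBMC gave 1 higher and 6 lower of 22, beside 12.7% and 12.5% of all genes. Neutrophil transcripts, summed in members, were 80019, 42096 and 20926 CPM across blood of heart, liver and kidney recipients. The lowest blood value of this list was thus in kidney. Macrophage and monocyte genes summed to 8524 CPM in liver and 967 in kidney PBMC, with 5 and 4 of 13 at 0 and 4 of 4 compared higher in liver. B cell genes summed to 3477 and 568 CPM, with 1 and 5 of 12 at 0 and 4 of 5 higher, and erythroid genes to 5701 and 2733, with 3 and 4 of 9 at 0 and 2 of 4 higher. The part of these transcripts in the ratios of Gzmk, Cxcr6 and the interferon-stimulated genes was not tested.

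The TIL libraries labelled liver and heart differed in fewer genes by share, with 234 of 6296 higher in the library labelled liver (3.72%) and 186 lower (2.95%). Of 14 cytotoxic granule genes compared, 1 was higher, Gzmc, a granzyme of strongly stimulated T cells, and 1 lower, Gzma. Of 13 chemokine and cytokine genes 0 were higher and 2 lower, Ccl5 at 2.44-fold (2.36 to 2.53) and Il10. With the labels exchanged the log2 ratios of liver over heart for Gzma and Ccl5 are 1.79 and 1.29 instead of -1.79 and -1.29. Ccl4 and Ccl3, at 1864 and 856 CPM in the library labelled heart TIL and 1605 and 585 in the library labelled liver TIL, were below 2-fold apart. Of the 234 genes higher in the library labelled liver TIL, 63 also stood at least 2-fold over its myeloid cells and 47 over its cells with no T cell UMI. Ccl1, a chemokine of activated T cells, was at 53.4 CPM (38.6 to 71.9) against 9.86 (5.39 to 16.5). It was among the 10 of the 63 with the largest ratios and passed both filters. Ighg2b, Ighg2c and Col1a2, also among the 10, passed only the myeloid filter. Of the 186 lower, 57 stood 2-fold over myeloid cells of the library labelled heart TIL and 29 over its cells with no T cell UMI. The 10 largest ratios of the 57, hepatocyte genes Apoc3 and Ttr included, failed the latter filter.

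A part of the naive and memory genes was higher in members of the library labelled liver TIL. Of 14 naive and memory genes compared, 4 were higher and 1, Ccr9, lower (3.72% and 2.95% of all genes), with a median log2 ratio of 0.53 against -0.01 over all genes. They were the memory factor Tcf7 at 32.3 CPM (21.1 to 47.3) against 11.3 (6.44 to 18.3), the interleukin 7 receptor Il7r at 24.8 CPM (15.2 to 38.3) against 7.75 (3.87 to 13.9), Ccr7, and Ly6c1. For Ly6c1, members of the library labelled liver TIL were not 2-fold over its cells with no T cell UMI, which held 58.4 CPM. The inhibitory receptor Pdcd1 was at 289 CPM (253 to 329) and 168 (148 to 191), 1.72-fold (1.43 to 2.07) higher and short of the call, and Tox, a factor of chronically stimulated cells, was the 1 lower gene of 11 in the list of inhibitory receptors, at 23.6 CPM (14.2 to 36.8) against 83.8 (69.4 to 100.3). Interferon-stimulated genes gave 7 higher and 0 lower of 29, with a median of 0.17, and glycolysis 3 higher and 0 lower of 14: the glucose transporter Slc2a1, the hexokinase Hk2 and the lactate exporter Slc16a3. Of 23 T cell receptor signalling genes, 6 of which the rule used, 0 were past 2-fold either way. Each direction here reverses if the labels are exchanged.

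Transcripts of other cells moved with these 2 libraries. Summed hepatocyte genes were 656 CPM in members of the library labelled heart TIL and 42.2 in those labelled liver TIL, and 8 of the listed hepatocyte genes, Alb among them, were at 0 in the latter. Erythroid genes summed to 667 and 39827 CPM and plasma cell genes to 4187 and 28094. Stromal and endothelial genes summed to 129.6 and 530.0 CPM, with 0 of 9 at 0 in both and 5 of 6 compared higher in the library labelled liver TIL, and neutrophil genes to 5977 and 4947, with 0 of 11 at 0 in both and 4 of 9 lower. Of 13 dissociation stress genes 3 were higher (Fos, Dusp1 and Btg2) and 0 lower, beside 3.72% and 2.95% of all genes. Scaled without the marker genes of other cells, 291 genes were higher and 138 lower, so that 67.8% of calls were higher in the library labelled liver TIL, against 55.7% as first scaled. That scaling moves all ratios nearly alike, and Gzma and Ccl5 stayed lower. Cells with no T cell UMI held 1578 and 454 CPM of Gzma and 5442 and 4056 of Ccl5 under the heart and the liver label. Whether free RNA has a part in any of these ratios was not tested.

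By the share of genes called, kidney TIL members differed more from those of both other TIL libraries than these did from each other. Against the library labelled heart TIL, 467 of 3515 genes were higher in kidney (13.3%) and 506 lower (14.4%). Scaled without the marker genes of other cells 433 were higher and 547 lower, and centred on the median gene 395 and 552. Of the 506, 55 also stood at least 2-fold over myeloid cells of the library labelled heart TIL, and 32 over its cells with no T cell UMI. Against kidney, the library labelled liver TIL had 522 of 3548 higher (14.7%) and 504 lower (14.2%). Of the 522, 50 also stood at least 2-fold over its myeloid cells, and 32 over its cells with no T cell UMI. Of the 467 and 504 genes higher in kidney, 133 and 147 stood at least 2-fold over the cells of kidney TIL with no T cell UMI. These comparisons share the kidney library and are given side by side. The granule list gave 0 higher and 3 lower of 11 in kidney against the library labelled heart TIL (Gzma at 10.8-fold (8.94 to 13.05), Gzmb at 9.64-fold (8.24 to 11.3) and Gzmk), and 5 higher and 0 lower of 12 in the library labelled liver TIL against kidney (Gzma at 3.11-fold (2.56 to 3.81), Gzmb at 6.30-fold (5.37 to 7.43), Gzmk, Srgn and Fasl). Of 8 chemokine and cytokine genes 4 were lower in kidney TIL than in the library labelled heart TIL (Ccl3, Ccl4, Ccl5 and Ccl9), and Xcl1, which the rule used, was higher. The same 4 were higher in the library labelled liver TIL than in kidney. Ccl4 was at 1864 CPM (1794 to 1937), 1605 (1519 to 1695) and 147 (106 to 199) in the libraries labelled heart and liver TIL and in kidney TIL, and Ccl3 at 856 (809 to 906), 585 (533 to 639.9) and 91.3 (59.6 to 134). Ifng, the main interferon of effector T cells, was not among the calls, at 187 (165 to 211), 254 (221 to 292) and 239 (185 to 303) CPM.

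Other effector features followed the same split in part. Where 13.3% of all genes were higher in kidney TIL than in the library labelled heart TIL and 14.4% lower, 5 of 7 NK receptor genes compared were lower and 0 higher, among them Klrd1 at 4.27-fold (3.01 to 6.25), Cd160 and the adaptors Fcer1g and Tyrobp, which myeloid cells also express. Of 14 homing receptors 5 were lower, including Cxcr6 at 154 CPM (112 to 207) against 327 (298 to 359) and Cd69, and Itgb1 was higher at 288 CPM (229 to 357) against 68.3 (55.4 to 83.3). Dapl1 was higher in kidney TIL, at 446 CPM (372 to 531) with UMIs in 71 of 369 members, against 24.6 (17.2 to 34.3) and 41.0 (28.2 to 57.5) in the libraries labelled heart and liver TIL. In kidney TIL cells with no T cell UMI it was at 193 CPM, and after thinning 14.9% of members and 8.43% of those cells held a UMI. Ly6c2, a surface marker of memory and effector cells, was higher too, at 2559.7 CPM (2377 to 2752) against 1155 (1099.5 to 1212). Prf1 was short of the call at 116 CPM (79.8 to 163) against 214 (191 to 239.5), and Pdcd1 at 323 CPM (260.4 to 396) against 168 (148 to 191). Of 9 genes of the inhibitory receptor list 0 were higher in kidney TIL and 5 lower (Lag3, Havcr2, Cd160, Entpd1 and Lgals3), with a median log2 ratio of -1.002. The mast cell proteases Mcpt1 and Mcpt2 had large ratios that rested on 2 cells of kidney TIL.

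A part of the genes of antigen presentation and of the interferon response was lower in kidney TIL. Of 10 MHC class I genes compared with the library labelled heart TIL, 5 were lower and 0 higher (14.4% and 13.3% of all genes), among them B2m, the constant chain of class I, at 4435 CPM (4193 to 4686) against 9458 (9299 to 9619.6). With the library labelled liver TIL, 6 of 10 were higher than in kidney (14.7% of all genes). Interferon-stimulated genes gave 0 higher and 8 lower of 21 in kidney against the library labelled heart TIL, beside the same shares of all genes, and 15 higher and 0 lower of 24 in the library labelled liver TIL against kidney, with a median log2 ratio of 1.21 against -0.13 over all genes. Isg15, a ubiquitin-like protein induced by interferon, was at 199 CPM (176 to 223), 194 (164 to 227) and 52.7 (29.5 to 86.9), and the guanosine triphosphatase Iigp1 at 102 (86.2 to 120.1), 130.3 (107 to 158) and 24.6 (9.88 to 50.6).

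Immediate early genes, which dissociation at warm temperature is known to induce, also split the TIL libraries. Of 13 compared, 9 were lower in kidney than in the library labelled heart TIL and 2, the chaperones Hspa8 and Hsp90aa1, were higher. Of all genes 14.4% were lower and 13.3% higher, so the count of higher genes is near that of all genes and the count of lower genes is not. Junb was at 549 CPM (511 to 588), 451 (405 to 499) and 49.2 (26.9 to 82.5) in the libraries labelled heart and liver TIL and in kidney TIL. Hsp90aa1 was at 40.8 (31.0 to 52.8), 81.9 (63.4 to 104) and 565 (481 to 659.7). Some differences were found in the cells without T cell transcripts too. Pfn1, an actin-binding protein, was at 906 CPM (799 to 1023) in members of kidney TIL against 8567 (8415 to 8720.5) in the library labelled heart TIL, and at 780.0 and 6925 CPM in the reference cells of the same libraries. The members of kidney TIL also held 1945 CPM of proximal tubule genes, against 245 and 171 in the libraries labelled heart and liver TIL. Most transcripts of other immune cells were lower there. Macrophage and monocyte genes summed to 3613 CPM against 19053 and 12824, with 1 of 13 at 0 in each of the 3, and neutrophil genes to 63.2 against 5977 and 4947, with 7 of 11 at 0 in kidney TIL, Csf3r, Cxcr2 and Ly6g among them, and 0 at 0 in the other 2. Plasma cell genes summed to 1239 CPM against 4187 and 28094, with 3 of 11 at 0 in kidney TIL, and erythroid genes to 1548 against 667 and 39827, with 4, 4 and 2 of 9 at 0. What part these transcripts have in the ratios of Fcer1g, Tyrobp, the MHC class I genes and the interferon-stimulated genes was not tested. Cycle genes outside the rule were 6 higher and 0 lower of 29 against the library labelled heart TIL, beside 13.3% and 14.4% of all genes. The library labelled liver TIL had 0 higher and 12 lower of 29 than kidney, with a median log2 ratio of -0.95, beside 14.7% and 14.2%. In kidney TIL 61.8% of members had 1 or 2 UMIs of the cycle genes in the rule, against 48.4% and 40.1%. What part library-wide differences have in the lower granzyme and chemokine levels was not tested. Members with no UMI of the 6 cycle genes had Gzmb at a log2 ratio of -2.88 in kidney over the library labelled heart TIL, against -3.27 in all members. Scaled without other cells' marker genes, the library labelled liver TIL had 635 genes higher and 393 lower than kidney, 61.8% higher against 50.9%.

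Liver PC and kidney PC gave the only comparison of solid tissue, from 2010 and 93 members. Of 986 genes compared, 102 were higher in liver (10.3%) and 153 lower (15.5%), with a median log2 ratio of -0.21 over all genes, and centred on that median 135 were higher and 86 lower. Of the 102, 21 also stood at least 2-fold over both B cells and myeloid cells of liver PC, and 25 over its cells with no T cell UMI. Of the 153, 10 stood at least 2-fold over the cells of kidney PC with no T cell UMI. The granule list gave 5 higher and 0 lower of 8, with a median of 1.48. They were Gzmb and Gzma at the folds given above, Prf1 at 301 CPM (282 to 321) against 49.8 (10.3 to 146), the granule proteoglycan Srgn, and Serpinb6b. Ccl3, Ccl4 and Ccl5 were higher in liver, Ccl5 at 6.03-fold (5.03 to 7.29), Ccl4 at 8.99-fold (5.02 to 18.0) and Ccl3 at 11.5-fold (5.28 to 31.4). Of 5 NK receptors Klrd1 and Klrc1 were higher, Klrd1 at 4.98-fold (2.62 to 10.9). The 10 genes with the largest ratios in favour of liver members that also stood over B and myeloid cells of liver PC were Gzmb, Gzma, Prf1, Ccl3, Ccl4, Ccl5, Klrd1, Cxcr6, the interferon-induced Epsti1 at a log2 ratio of 3.57 and Gm8369. The interferon-stimulated list gave 0 higher and 0 lower of 11, with a median of -0.16. All 5 dissociation stress genes compared were past 2-fold, Junb, Zfp36 and Nfkbia higher in liver and Hspa8 and Hsp90aa1 lower, and their part in the granzyme and chemokine ratios was not tested.

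Kidney PC members held more erythroid and tubule transcripts than liver PC members. Erythroid genes summed to 14134 CPM there and 2.53 in liver PC, and proximal tubule genes to 6179 and 156, while neutrophil genes were 183 and 9179. Of 9 erythroid genes 7 were at 0 in liver PC, and of 11 neutrophil genes 7 were at 0 in kidney PC. B cell genes summed to 15214 CPM in kidney PC and 6285 in liver PC, with 5 and 1 of 12 at 0 and 3 of 5 compared higher in kidney. Of 17 cycle genes outside the rule 6 were lower in liver and 0 higher, beside 15.5% and 10.3% of all genes, and 63.4% (52.8 to 73.2) of kidney PC members and 54.8% (52.6 to 57.0) of liver PC members had 1 or 2 UMIs of the cycle genes in the rule. The part of these transcripts in the granzyme, chemokine and other ratios was not tested. Hbb-bs, Hba-a1 and the kidney genes Kap and Gpx3 led the genes higher in kidney, and Dapl1 was higher at 332 CPM (203 to 513) against 13.6 (9.84 to 18.3). MHC class I genes gave 3 higher in liver and 0 lower of 6 (10.3% and 15.5% of all genes), with B2m at 10480.0 CPM (10368 to 10593) against 3770.3 (3296 to 4294). The cells of kidney PC with no T cell UMI held 241 CPM of Gzmb and 2001 of Ccl5, against 515 and 2726 in liver PC. With a floor of 1000 UMIs, 21 cells of kidney PC passed and 9.52% of them were members, too few to compare at that depth.

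**Figure D5:**
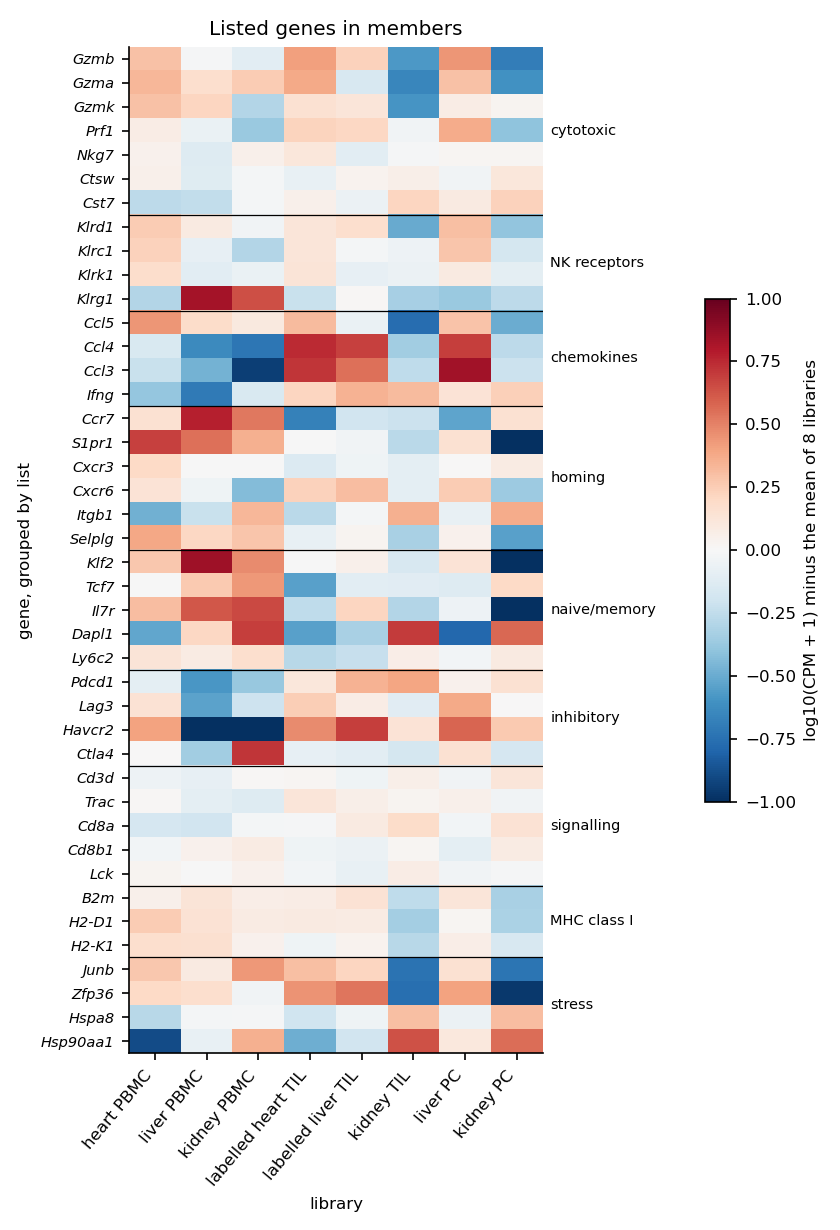
Heat map of log10 of CPM plus 1 in members, minus the mean of the 8 libraries, for genes of 9 lists (rows) in the 8 libraries (columns). Gzmb, Gzma, Ccl5, Ccl3 and Ccl4 are below their means in kidney TIL and kidney PC, Dapl1 is above its mean in all 3 kidney libraries, and Ctla4 is above it in kidney PBMC.

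The 3 kidney libraries shared higher levels of some genes outside the rule, in members and in part in their other cells. Dapl1 was at 435, 446 and 332 CPM in kidney PBMC, TIL and PC and between 13.6 and 142 CPM in the other 5, and Itgb1 at 275, 288 and 299 against 41.2 to 122 CPM. Hsp90aa1 was at 293, 565 and 465 against 15.4 to 164 CPM. Kidney cells with no T cell UMI, in the order PBMC, TIL and PC, held 58.6, 193 and 204 CPM of Dapl1, 145, 165 and 204 of Itgb1 and 145, 376 and 426 of Hsp90aa1. Members were thus not 2-fold over them for Itgb1 in any of the 3 libraries. Members of kidney PC were not for Dapl1 and Hsp90aa1 either, and members of kidney TIL were not for Hsp90aa1. By the study's methods, graft and blood samples of an organ were taken from a common set of recipients, so these 3 libraries may share animals. The kidney libraries were also the 3 with the fewest UMIs and the fewest passing cells, so organ, animals and library depth cannot be told apart. Blood and graft members are set side by side without a call. S1pr1, the receptor for exit from tissue, was between 62.1 and 134 CPM in blood and at most 38.2 in grafts by point values. Its counting intervals overlap for kidney PBMC and kidney PC, where no UMI was found. Ifng was between 21.8 and 79.9 CPM in blood and between 156 and 254 in grafts by point values, with counting intervals that overlap for kidney PBMC and kidney PC. Ccl4 in kidney TIL (147) and kidney PC (183) lay below heart PBMC (232) by point values, with overlapping counting intervals.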

How the data were processed

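UMI counts per gene and barcode were deposited by the authors as raw counts for 8 Microwell-seq libraries (poly-A RNA captured on barcoded beads in microwells). Per the labels and the study's methods, the authors used bcl2fastq, aligned reads with STAR to GRCm38, tagged them with GENCODE annotation and counted UMIs. Each table holds 10000 barcodes before any filter on cells. A barcode was kept as a cell where it held 500 UMIs or more and no more than 10% of them were mitochondrial, and members were chosen by the gene rule given at the start. The members, the 16 gene lists and the 13 marker lists were chosen with earlier results of these data known.

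UMIs were summed over members and scaled to CPM of their summed UMIs, and log2 ratios used a pseudocount of 1 CPM. No test between conditions was possible with 1 library each. A gene was called at 2-fold where its mean level was worth at least 10 UMIs in the shallower sum. Shares of cells with a UMI and per-cell counts used cells thinned to 500 UMIs with seed 0. Named genes were the listed genes and, in each direction of a comparison, the 10 largest ratios among called genes at least 2-fold over B cells and myeloid cells of the higher library, and no gate with under 20 cells served as reference. No such gate was usable in the kidney libraries, so the 10 were taken there from all called genes. No doublet caller was run: the rule leaves out cells with Csf1r or Cd79a, and an alternative left out the 5% of members with the most UMIs. Alternatives also changed the UMI floor, the number of UMIs of each gene group, pseudocount, filter, scaling, cycle limit, shared barcodes and the 2 TIL labels, and centring on the median gene and equal weight for each cell were tried. Some genes of the lists and the per-cell sum of naive genes are not reported here. The ratio and thinning steps were tested on simulated data. Gene positions came from GENCODE vM21 on GRCm38. Computation ran in Python 3.11.15 (numpy 2.4.6; scipy 1.17.1; matplotlib 3.10.9).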

Additional observations from a re-analysis of the deposited data

Results flagged for a closer look

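3 genes of the dissociation stress list had ratios of opposite sign in blood and in grafts under the same contrast of organs. Ier2, at 144 (95.8 to 208) CPM in heart PBMC and 364 (261 to 494) in kidney PBMC, had a log2 ratio of kidney over heart of 1.33 in PBMC and of -1.26 in TIL, where the library labelled heart was at 237 (213 to 264) and kidney at 98.3 (65.3 to 142). Junb had a log2 ratio of liver over kidney of -1.14 in PBMC, with 338 and 745 CPM, and of 3.17 in TIL, with 451 CPM in the library labelled liver and 49.2 in kidney. Nfkbia had ratios of -1.15 in PBMC, with 207 and 461 CPM, and 1.69 in TIL, with 569.8 and 176. Each value is a single library, so the difference between blood and graft was not tested. Reference cells with no T cell UMI of kidney and heart held 366 and 324 CPM of Ier2 in blood, and 101 in kidney TIL against 239 in the library labelled heart TIL. Those of liver and kidney held 643 and 1259 CPM of Junb and 402 and 1197 of Nfkbia in blood, and in TIL they held 656 and 819 of Junb and Nfkbia under the liver label and 101 and 376 in kidney. With the labels of the heart and liver TIL libraries exchanged, Ier2 is short of 2-fold in TIL, at a log2 ratio of 0.86 for the library labelled liver over kidney. Junb and Nfkbia keep their direction under that exchange, at log2 ratios of -3.45 and -1.60 for kidney over the library labelled heart TIL.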

How the results depend on the processing

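The shares of members moved with most changes of the rule's limits. In the order PBMC of heart, liver and kidney, TIL labelled heart, labelled liver and kidney, and PC of liver and kidney, they were 6.96%, 3.56%, 22.5%, 34.8%, 26.2%, 43.0%, 30.3% and 38.87% with 1 UMI of each gene group, 0.991%, 0.484%, 5.07%, 5.78%, 3.64%, 6.39%, 13.6% and 2.14% with 3, 0.579%, 0.352%, 4.90%, 7.05%, 4.61%, 11.1%, 8.63% and 7.04% on thinned cells, and 1.52%, 0.836%, 5.34%, 7.69%, 5.38%, 7.04%, 9.09% and 4.28% with no UMI of the 6 cycle genes, an alternative added after the data were seen. With a floor of 1000 UMIs they were 5.90% (heart PBMC), 3.86% (liver PBMC), 15.04% (kidney PBMC), 17.8% (labelled heart TIL), 13.01% (labelled liver TIL), 24.2% (kidney TIL) and 9.52% (kidney PC). With cycling and activated cells kept they were 17.3% (kidney PBMC), 19.5% (labelled heart TIL), 12.1% (labelled liver TIL), 24.9% (kidney TIL) and 33.7% (liver PC).

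The count of genes past 2-fold moved with the filter on low counts and with the choice of cells. In the order liver over heart, kidney over heart and liver over kidney PBMC, the same 3 pairs of TIL (labelled liver over labelled heart, kidney over labelled heart, labelled liver over kidney) and PC, it was 130, 414, 210, 420, 973, 1026 and 255 as reported, 5391, 5743, 5329, 3851, 6444, 7634 and 8343 with no filter beyond 1 UMI, and 36, 132, 38, 143, 373, 388 and 86 for genes worth 30 UMIs. With 3 UMIs of each gene group it was 60 (liver over heart PBMC), 257 (kidney over heart PBMC), 96 (liver over kidney PBMC), 451 (kidney over labelled heart TIL), 454 (labelled liver over kidney TIL) and 55 (liver over kidney PC). With a floor of 1000 UMIs it was 262 (kidney over heart PBMC), 356 (kidney over labelled heart TIL), 381 (labelled liver over kidney TIL) and 4 (liver over kidney PC). A pseudocount of 10 CPM gave 211 (labelled liver over labelled heart TIL), and members with no cycle UMI gave 196 (kidney over heart PBMC), 118 (liver over kidney PBMC), 432 (kidney over labelled heart TIL), 492 (labelled liver over kidney TIL) and 104 (liver over kidney PC). Median effector UMIs moved to 11 (labelled heart TIL) with the higher floor, 14 (labelled heart TIL) and 12 (liver PC) with 3 UMIs, and 13 (liver PC) with no cycle UMI. The causes were not tested.

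With the labels of the heart and liver TIL libraries exchanged, the log2 ratios of liver over heart reversed to 1.79 for Gzma and 1.29 for Ccl5. For Gzmb, Gzma and Ccl5 in the 7 comparisons, 197 recomputed ratios stayed within their counting error, 41 moved beyond it without changing the sign of a call, and those 2 reversed. Centred on the median gene, or scaled without other cells' marker genes, these calls kept their direction. No paired analysis was run, and each condition has 1 library. Depth limits the kidney PC values most, since its 93 members hold 60208 UMIs in all.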

Other observations

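Lists of survival, transcription factor and cytoskeleton genes were not counted above, though single members were described. Of survival and death genes, kidney TIL over the library labelled heart TIL gave 0 higher and 4 lower of 10 (Bcl2a1b, Bax, Fas and Pim1 lower), beside 13.3% higher and 14.4% lower of all genes compared. The library labelled liver TIL over kidney gave 3 higher and 1 lower of 11, beside 14.7% and 14.2% of all genes, with the anti-apoptotic Bcl2 the lower gene. Fas, the death receptor, was at 154 CPM (104 to 220.4) in heart PBMC and 62.1 (24.98 to 128) in kidney PBMC, and the list gave 0 higher and 1 lower of 7 there, beside 12.7% and 12.5% of all genes. Among transcription factors, Id2, which favours effector cells, and Id3, which favours memory cells, stood apart in kidney TIL. Id2 was at 931 CPM (881 to 982), 971 (904 to 1041) and 263 (207 to 330.1) and Id3 at 71.1 (57.9 to 86.4), 38.5 (26.1 to 54.6) and 172 (127 to 227) in the libraries labelled heart and liver TIL and in kidney TIL. The list as a whole gave 1 higher and 1 lower of 9 in kidney over the library labelled heart TIL, beside the same 13.3% and 14.4%, and 2 higher and 1 lower of 18 between the libraries labelled liver and heart TIL, beside 3.72% and 2.95%.

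Of S100 and cytoskeleton genes, 0 higher and 0 lower of 20 were called in liver over heart PBMC, where 4.41% and 5.31% of all genes were. The TIL libraries labelled liver and heart gave 0 higher and 0 lower of 21, beside 3.72% and 2.95%, and liver over kidney PC gave 5 higher and 1 lower of 19, beside 10.3% and 15.5%. Kidney TIL over the library labelled heart TIL gave 2 higher and 5 lower of 20, beside 13.3% and 14.4%. The library labelled liver TIL over kidney gave 4 higher and 1 lower of 20, beside 14.7% and 14.2%. Vim, an intermediate filament gene, was at 816 CPM (785 to 848) in liver PC and 133 (57.4 to 262) in kidney PC. Activation and costimulation genes, a list that holds Tnfrsf9 and Crtam of the rule, gave 2 higher and 4 lower of 13 in kidney over the library labelled heart TIL, beside 13.3% and 14.4% of all genes, so the higher count is near that of all genes. The costimulatory receptors Cd28 and Icos were the higher genes and Cd69, Cd38, Nr4a1 and Myc the lower. Icos was at 211 CPM (161 to 271) in kidney TIL and 72.5 (59.2 to 88.0) in the library labelled heart TIL. With 1 library a condition, none of these values has a replicate.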
